A study of Mus musculus with 4 samples.

Results

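The cytosolic ribosomal protein genes were taken from the count tables by symbol: a gene was a member when its symbol starts with Rpl or Rps followed by a digit, or is *Rplp0*, *Rplp1*, *Rplp2* or *Rpsa*, leaving out pseudogenes and the Rps6k kinases. The rule found 86 of the 31053 genes counted, 52 with an Rpl and 34 with an Rps symbol. Of these, 77 encode the standard proteins of the ribosome (46 of the large subunit and 31 of the small subunit) and 8 are paralogs, second copies that resemble one of them (*Rpl3l*, *Rpl7l1*, *Rpl10l*, *Rpl22l1*, *Rpl36al*, *Rpl39l*, *Rps27l* and *Rps27rt*). The last, *Rps19bp1*, is taken by its symbol and is not a subunit protein. *Fau* and *Rack1*, whose symbols the rule does not take although they encode proteins of the small subunit, are given beside the members. The rule uses names alone and no measured value.

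The counts come from single cells of mouse testis at postnatal day 14 (P14), from the region that holds the rete testis (RT), the network of ducts into which the tubules drain, and the adjacent tubules. There were 2 control and 2 *Sox17*-cKO libraries, each from cells of 3 pups pooled, all on C57BL/6. The labels give the controls as SF1Cre and the *Sox17*-cKO as SF1Cre:Sox17flox/flox, whereas the methods give littermate controls that carry Sox17flox/flox without the Cre. The Cre is driven by *Nr5a1* (SF1), which is active in the somatic cells of the gonad, so the germ cells of *Sox17*-cKO mice are not a direct target of the deletion.

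Each ribosome is built from ribosomal RNA and 1 copy of most of these proteins, so their mRNAs are among the most abundant of a growing cell. Their mRNAs share a stretch of pyrimidines at the start (5'TOP) through which their translation is controlled together. Male germ cells also use paralogs. *Rpl39l* and *Rpl10l* are autosomal copies of the X-linked *Rpl39* and *Rpl10*, and both are known to be needed for normal male fertility in the mouse. In pachytene spermatocytes, the meiotic cells in which paired chromosomes recombine, the X and Y chromosomes are silenced, and autosomal copies are thought to stand in for X-linked genes during that time.

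The coding sequences of *Rpl39* and *Rpl39l* and the first 150 bases of those of *Rpl10* and *Rpl10l* are shown because the counts below follow each pair of genes apart. Capitals mark the bases at which the copies of a pair differ (GENCODE vM21, GRCm38).
Rpl39 (chromosome X): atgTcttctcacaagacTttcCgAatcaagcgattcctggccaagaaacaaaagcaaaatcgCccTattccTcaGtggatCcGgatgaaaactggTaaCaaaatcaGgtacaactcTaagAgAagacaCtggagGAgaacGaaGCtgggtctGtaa
Rpl39l (chromosome 16): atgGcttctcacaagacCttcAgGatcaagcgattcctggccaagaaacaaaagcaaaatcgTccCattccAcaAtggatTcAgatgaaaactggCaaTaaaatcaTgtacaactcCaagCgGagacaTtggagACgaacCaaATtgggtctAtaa
Rpl10 (chromosome X): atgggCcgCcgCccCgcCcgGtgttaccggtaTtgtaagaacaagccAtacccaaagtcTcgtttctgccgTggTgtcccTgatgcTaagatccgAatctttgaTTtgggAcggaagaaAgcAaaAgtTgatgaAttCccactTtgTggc
Rpl10l (chromosome 12): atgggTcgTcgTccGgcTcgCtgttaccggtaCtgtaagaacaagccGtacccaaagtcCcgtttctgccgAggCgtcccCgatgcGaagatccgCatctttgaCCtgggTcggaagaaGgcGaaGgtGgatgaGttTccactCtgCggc
The *Rpl39* pair differed at 23 of 156 bases (85.26% identity), 16 of them at the third position of a codon. The *Rpl10* pair differed at 98 of 645 bases (84.81%), 89 of them at the third position. Most differences thus lie where a change often leaves the amino acid as it is. No run of 91 bases, the length of the reads searched, in the last 400 bases of the *Rpl39l* or *Rpl10l* transcripts was found in another transcript, so their reads can be told from those of the parent. This does not hold for all members. Such repeated runs were found in 70 of the 86, with over 50% of the runs repeated in 26, and 21 shared runs with another counted gene. Of the members named below, repeats took over 50% of the runs in *Rpl36a* (100%), *Rps27rt* (89.8%), *Rpl10* (85.6%), *Rpl35* (77.7%), *Rpl3* (75.0%), *Rpl36al* (73.4%), *Rps12* (72.5%), *Rpl10a* (66.6%), *Rpl27* (65.0%), *Rpl17* (64.6%), *Rps2* (63.0%), *Rpl36* (62.8%), *Rpl7* (61.0%), *Rpl11* (57.0%) and *Rps26* (50.6%). In *Rps27*, *Rpl22l1* and *Rps4x* they took 45.1, 40.4 and 30.6%. Counts of these genes are less certain for this, by an amount not measured. The runs were sought in all transcripts, including those of genes not counted here. Other counted genes held 0% of the runs of *Rpl3*, *Rpl7*, *Rpl10a*, *Rpl36*, *Rps26*, *Rpl22l1* and *Rps4x*. They held 5.1% of those of *Rpl17*, 18.8% of *Rpl11*, 26.7% of *Rps2*, 61.6% of *Rpl36a* and 67.8% of *Rpl36al*. In the rest of those named here, among them *Rpl35*, all repeats lie in other counted genes.

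The 100 bases before the start sites of the same genes (RefSeq, GRCm38.p6) show how far the copies differ outside their coding parts, with CCGGAAG, the core bound by ETS factors, in capitals where a search of either strand found it.
Rpl39 (chrX:37085223-37085322, minus strand): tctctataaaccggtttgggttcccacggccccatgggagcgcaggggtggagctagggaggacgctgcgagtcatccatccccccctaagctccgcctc
Rpl39l (chr16:10170128-10170227, plus strand): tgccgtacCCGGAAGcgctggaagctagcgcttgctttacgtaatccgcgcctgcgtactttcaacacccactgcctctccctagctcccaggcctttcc
Rpl10 (chrX:74270716-74270815, plus strand): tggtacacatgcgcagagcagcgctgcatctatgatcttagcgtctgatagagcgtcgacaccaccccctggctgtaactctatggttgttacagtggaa
Rpl10l (chr12:66284402-66284501, minus strand): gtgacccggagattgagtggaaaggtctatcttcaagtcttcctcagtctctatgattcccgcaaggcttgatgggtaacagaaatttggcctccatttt
Promoters of 300 bases, 250 before and 50 after the start, were listed for 66 members. The ETS core was found in 40.35% of the 57 standard members with a promoter, in 2 of the 8 paralogs and in 9.12% of all 27025 promoters. A pyrimidine tract at the start (5 pyrimidines in a row within 5 bases of the start) was found in 45.61% of the standard members and in 26.62% of all promoters. The YY1 motif AAGATGGC was found in 7.02% against 2.88%, and TATAAA in 8.77% against 14.16%, with both strands searched for each set of letters. A match describes the letters alone.

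After cells with 1000 to 4500 detected genes were kept, 22567 of 46001 barcodes remained, 5174 to 6135 per library, with 33649565 to 42011650 UMIs (unique molecular identifiers, 1 per captured mRNA molecule) per library. Among the retained barcodes, 45 sequences occurred in more than 1 library. Clusters were formed without the members and named from marker lists as Sertoli-like (6208 cells), germ-like (6996), interstitial-like (7148), RT-like (228), Leydig-like (249), macrophage-like (296) and endothelial-like (71), and 1371 cells stayed unnamed. Germ-like clusters were split by markers into undifferentiated spermatogonia-like (571), differentiating spermatogonia-like (3138), preleptotene to zygotene-like (2287) and pachytene-like (1000). RT-like cells rest on 4 of 6 RT markers and number 33 to 86 per library. *Sox17*, the gene deleted, stood at 356, 312, 45.5 and 34.6 counts per 1000000 UMIs of the class (CPM) in RT-like cells of control 1, control 2, *Sox17*-cKO 1 and *Sox17*-cKO 2, lower in both *Sox17*-cKO libraries. Values for the 4 libraries are given in this order throughout. Replicate 1 of both genotypes was counted with Cell Ranger 6.0.2 and replicate 2 with 6.1.2, and the labels name no other batch.

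The mean share of UMIs in the 86 genes was lowest in Sertoli-like cells and highest in Leydig-like and interstitial-like cells among the 7 classes. In Sertoli-like cells the share was 8.74, 6.17, 7.56 and 5.74% of all UMIs, or 7.05% ± 1.37 (SD, n = 4). In RT-like cells, the epithelium next to them, it was 11.9, 7.75, 11.03 and 7.25%, or 9.49% ± 2.34. The 2 classes overlapped between libraries, but within each library RT-like cells were higher, by 2.43 ± 1.04 points. This held for the class sum and not for each of its clusters. The Sertoli-like cluster of 2919 cells had shares of 8.06, 5.33, 6.59 and 5.25%, below the RT-like cells in 4 of 4 libraries. The Sertoli-like cluster of 2461 cells, with fewer UMIs per cell, had 12.7, 8.11, 10.9 and 7.68%, above the RT-like cells in 3 of 4 libraries. Germ-like cells gave 16.2, 11.96, 13.95 and 11.9% (13.5% ± 2.02), and each of these values lay above each Sertoli-like value. Interstitial-like cells gave 18.8, 14.2, 16.7 and 13.7% (15.8% ± 2.36). Their clusters differed as well. The lowest, of 296 cells, had 13.6, 9.31, 10.9 and 8.53%, below the germ-like cells of each library. The highest, of 1624 cells, had 21.97, 16.4, 18.6 and 15.4%. Macrophage-like, endothelial-like and Leydig-like cells averaged 15.4% ± 3.93, 15.0% ± 1.89 and 16.2% ± 1.99, and did not differ from interstitial-like cells or from each other beyond their spread. Against Sertoli-like cells, the differences were 6.44 ± 0.71 points for germ-like, 8.79 ± 0.999 for interstitial-like and 8.34 ± 2.62 for macrophage-like cells. Each difference, and that of RT-like cells, had the same sign in 4 of 4 libraries, which gives p = 0.125 in a two-sided exact sign-flip permutation test and 0.125 after adjustment, the smallest p that 4 libraries allow. The widest 95% exact binomial interval of a single share, in the 8 endothelial-like cells of control 1, ran from 15.8 to 16.4%, and covers counting error only. In these sums, fewer ribosomal protein mRNAs per cell and more of other mRNAs cannot be told apart.

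**Figure D1:**
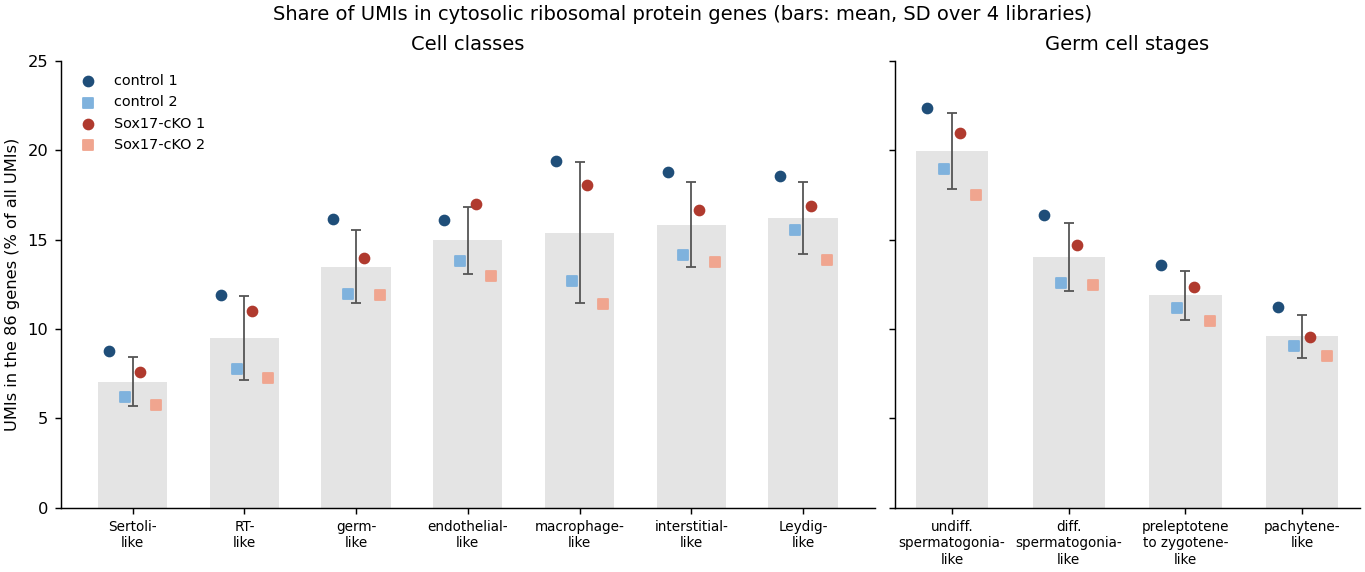
Share of all UMIs (y axis, %) in the 86 cytosolic ribosomal protein genes for 7 cell classes (left) and 4 germ cell stages (right); grey bars are means and error bars SDs over 4 libraries, and points are the libraries. Sertoli-like cells average 7.05%, interstitial-like cells 15.8%, and the germ cell stages fall from 19.96% to 9.58%, with both replicate 1 libraries (circles) above both replicate 2 libraries (squares) in every class and stage.

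The share of mitochondrial UMIs, a sign of RNA quality, was highest in the class with the lowest share, at 12.52% in Sertoli-like, 8.72% in germ-like, 7.20% in RT-like and 4.58% in interstitial-like cells. With mitochondrial UMIs left out of the total, the members took 8.09% in Sertoli-like and 14.8% in germ-like cells, and the difference was 6.68 points. In cells under 10% mitochondrial UMIs it was 5.23 points. This limit also changes the mix of Sertoli-like clusters. The median cell had 12.2% mitochondrial UMIs in the cluster of 2919 cells, 8.15% in that of 2461 and 29.6% in that of 828. Within the Sertoli-like class, the cluster with 29.6% mitochondrial UMIs in its median cell had shares of 7.93, 2.13, 5.33 and 2.31%. An unnamed cluster of 1354 cells, with 35.0% in its median cell, had shares of 6.47, 1.95, 5.78 and 1.89%. Clusters with most of its leading genes were named germ-like without integration and with the *Sox17*-cKO libraries integrated first. Here its cells are outside the germ-like class, while the Sertoli-like class keeps its own cluster high in mitochondrial UMIs. Barcodes with under 1000 genes, which are not in the classes, held 11.7, 6.22, 11.3 and 4.97% of their UMIs in the members. Those with over 4500 genes, also left out, held 13.5, 10.7, 12.8 and 10.3%. They held 49387483 to 63156394 UMIs per library, more than the retained cells of each library. What the upper limit on genes does to the shares by class was not tested. The part of RNA quality in the difference between classes was not tested.

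The members were far from equal in level although each ribosome holds most of their proteins in single copy. The 3' counts hold 1 UMI per captured molecule whatever its length, but capture differs between genes, so the following levels in CPM describe the counts. In Sertoli-like cells the 77 standard members ran from 165 CPM (*Rpl13a*) to 2965 CPM (*Rpl41*) around a median of 822, and in interstitial-like cells from 189.7 CPM (*Rpl13a*) to 4172 CPM (*Rpl23*) around a median of 1936. The 10 highest members held 22.4 to 29.9% of the members' UMIs in each class or stage. By mean level, Sertoli-like cells were the lowest class for 66 of the 77, RT-like for 8 and germ-like for 3. Leydig-like cells were the highest class for 31, interstitial-like for 19, macrophage-like for 10, germ-like for 9 and endothelial-like for 8. The ratio of large to small subunit UMIs stayed between 1.03 and 1.22 in the class and stage means. UMIs were found for 83 members in every named class of every library.

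Between germ-like and Sertoli-like cells, most members were higher in germ-like cells. Of the 86 members, 64 were higher and 6 lower in edgeR's quasi-likelihood test with the library as a block and Benjamini-Hochberg adjustment over 13576 genes at 0.05, against 79.6% of all genes tested (41.6% higher, 37.9% lower). At 81.4% the called share of the members was close to this background, and the direction was uneven. The median log2 fold change was 0.65 for the members and 0.08 for all genes. Scaling to library totals in place of TMM moved the median of all genes to 0.42 and that of the members to 0.99, with 79 higher and 1 lower. In cells under 10% mitochondrial UMIs, with another mix of Sertoli-like clusters, 47 were higher and 7 lower. The background of 79.6% is that of the main fit alone.

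*Rpl32*, a large subunit protein gene, stood at 1127, 666, 1008 and 587 CPM in Sertoli-like and 3335, 2310.5, 2763 and 2056 in germ-like cells. The groups did not overlap, and the log2 fold change was 1.31 ± 0.11 (SE, adjusted p = 5.39e-05). *Rpl12*, whose protein sits at the base of the ribosomal stalk, stood at 908, 826, 881 and 771 CPM in Sertoli-like and 2724, 3301, 2499 and 2982 in germ-like cells. It had the greatest rise among the standard members, 1.41 ± 0.12 (SE, adjusted p = 5.63e-05). *Rpl36*, *Rpl4* and *Rps24* were higher by log2 fold changes of 1.30 ± 0.11, 1.09 ± 0.09 and 1.27 ± 0.11, in 4 of 4 libraries each. The gene that fell most was the X-linked *Rps4x*, a small subunit protein with a separate copy on the human Y chromosome. It stood at 461, 336, 413 and 229 CPM in Sertoli-like and 142, 46.3, 125 and 41.2 in germ-like cells, and its log2 fold change was -2.53 ± 0.26 (SE, adjusted p = 0.000121). *Rpl13a*, *Rps29* and *Rpl11* were lower, with log2 fold changes of -0.51 ± 0.10, -0.50 ± 0.10 and -0.41 ± 0.10, all in 4 of 4 libraries. *Rpl39* was called lower (-0.46), but its CPM was lower in germ-like cells in only 2 of 4 libraries, and *Rpl36al*, also called lower, likewise, with a fold change that turned to 0.047 when scaled to library totals.

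**Figure D2:**
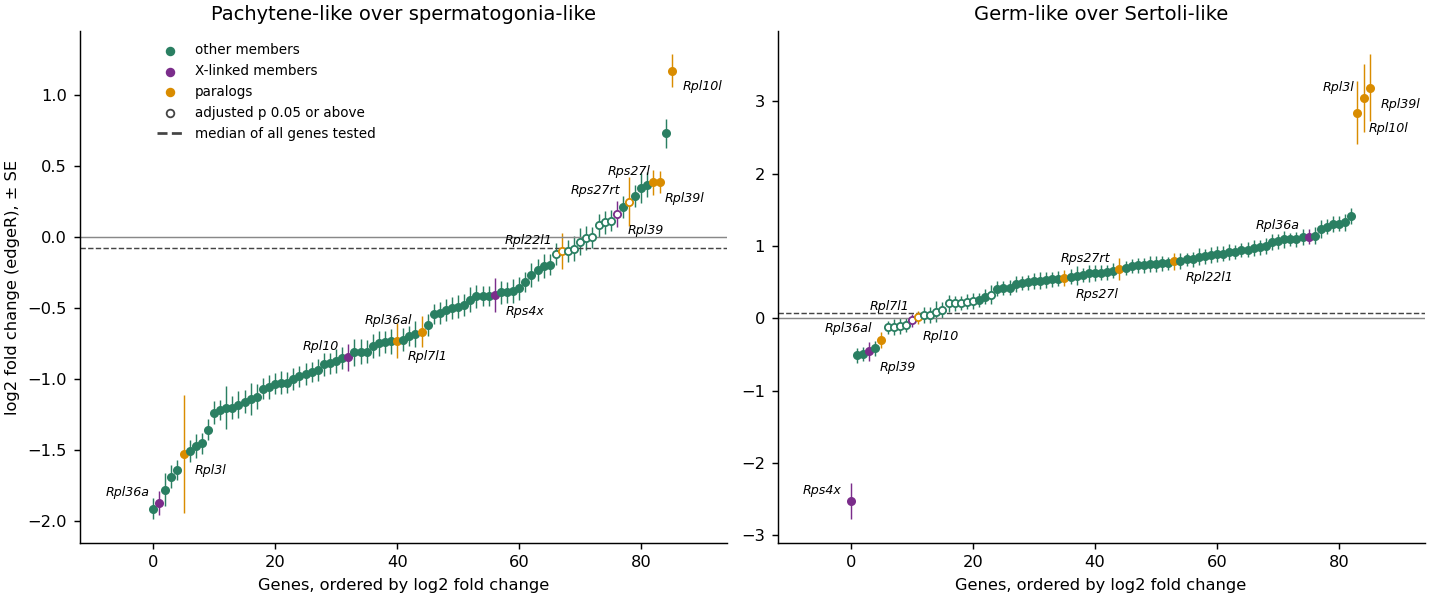
Log2 fold changes (y axis) with their SE from edgeR for the 86 members, ordered along the x axis, for pachytene-like over spermatogonia-like cells (left) and germ-like over Sertoli-like cells (right); filled points passed adjusted p 0.05, X-linked members are purple, paralogs orange, and the dashed line is the median of all genes tested. On the left most members lie below 0, with *Rpl10l* highest at 1.17, and on the right *Rps4x* lies lowest at -2.53 and *Rpl3l*, *Rpl10l* and *Rpl39l* highest.

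RT-like cells had a smaller excess over Sertoli-like cells. Of 85 members tested, 29 were higher and 8 lower, against 52.0% of the 11571 genes tested (24.7% higher, 27.3% lower), so the called share of 43.5% lay below the background. The median log2 fold change was 0.25 for the members and -0.09 for all genes. The count rested on single libraries: without *Sox17*-cKO 1 it was 15 higher and 8 lower, and without *Sox17*-cKO 2 it was 17 and 4. With library totals in place of TMM it was 53 and 4, and the median of all genes moved to 0.13. Without the library in the fit it was 9 and 4. The share of all genes called is given for the main fit only. The counts under other settings therefore do not tell a change in the members from one in the whole fit. In cells under 10% mitochondrial UMIs, a limit that also changes the mix of Sertoli-like clusters, 14 were higher and 11 lower.

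All 4 X-linked members were higher in RT-like cells. *Rpl36a* stood at 896, 625, 749 and 593 CPM in RT-like and 332, 190.2, 237 and 191 in Sertoli-like cells, a log2 fold change of 1.41 ± 0.14 (SE, adjusted p = 6.72e-08). *Rps4x*, *Rpl10* and *Rpl39* were higher by 1.39 ± 0.16, 1.11 ± 0.15 and 0.90 ± 0.16. The 456 X-linked genes tested had a median of -0.06. Among the paralogs, *Rpl22l1*, a copy of *Rpl22* that binds RNA like its parent, stood at 526, 391, 343 and 248 CPM in RT-like and 146, 115, 107 and 109 in Sertoli-like cells. The groups did not overlap (1.41 ± 0.15 SE, adjusted p = 1.33e-07), whereas *Rpl22* gave -0.29 ± 0.15 (SE, adjusted p = 0.113). *Rpl36* rose by 1.08 ± 0.15. Members lower in RT-like cells included *Rpl13a* (-0.95 ± 0.15), *Rps29* (-0.88 ± 0.18), *Rps27l* (-0.65 ± 0.15), *Rpl27a* (-0.48 ± 0.16) and *Rps19bp1* (-0.88 ± 0.18), whose product is known as a regulator of the deacetylase SIRT1.

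Within the germ line, the share in the stage sums fell at each stage. Undifferentiated spermatogonia-like cells, which hold the stem cells, gave 22.4, 18.95, 20.998 and 17.5% (19.96% ± 2.15), the highest of all classes and stages. Differentiating spermatogonia-like cells gave 16.4, 12.6, 14.7 and 12.48% (14.04% ± 1.89). Preleptotene to zygotene-like cells, which enter meiosis, gave 13.6, 11.2, 12.3 and 10.4% (11.9% ± 1.37), and pachytene-like cells 11.2, 9.05, 9.57 and 8.47% (9.58% ± 1.19). Neighbouring stages overlapped between libraries from the differentiating stage on, but within libraries the steps were -5.93 ± 0.61, -2.15 ± 0.61 and -2.30 ± 0.35 points, each downward in 4 of 4 libraries (exact sign-flip permutation test, p = 0.125 each, adjusted 0.125). The second step held for the stage sums and not for each cluster. The preleptotene to zygotene-like cluster of 1410 cells had shares of 15.52, 12.33, 13.81 and 11.37%. Its stage is less certain, as 4 markers of that stage and 3 of the differentiating stage were raised in it. At resolution 0.8 a germ-like cluster of 601 cells, led like this one by *Ctcfl*, got no stage name. The differentiating spermatogonia-like cluster of 1847 cells had 15.505, 11.955, 13.88 and 12.10%, lower in both controls and higher in both *Sox17*-cKO libraries. The other clusters of both stages, of 877 and 1291 cells, had 11.7, 9.24, 10.1 and 8.87% and 17.5, 14.6, 16.1 and 13.1%. The mitochondrial share was 9.54, 7.90, 8.82 and 11.6% at the 4 stages.

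Of the 77 standard members, 68 had their highest stage mean in undifferentiated spermatogonia-like cells and 61 their lowest in pachytene-like cells. By CPM, with no test, the first step had 70 lower and 5 higher in all 4 libraries (among them *Rpl22*, *Rpl27a*, *Rpl39* and *Rpl41*). The second step had 52 lower and 15 higher, and the third 59 lower and 6 higher (*Rpl7*, *Rpl9*, *Rpl38*, *Rplp0*, *Rps9* and *Rps12*). The stages are compared within the same 4 libraries, so neighbouring steps share cells. Counted in the same way, of all genes with 50 CPM or more in both stages 25.3% were lower and 47.9% higher in the first step, 38.5% and 43.1% in the second and 39.4% and 32.9% in the third.

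In the edgeR comparison of differentiating with undifferentiated spermatogonia-like cells, which was added after the data were seen, 73 of the 86 members were lower and 5 higher, against 62.1% of 11545 genes (30.9% higher, 31.3% lower). The called share of the members was 90.7%, beside a background that is not matched to their level. Their median was -0.65 and that of all genes 0.01 (-0.53 and 0.13 when scaled to library totals). *Rpl22l1* fell most among the paralogs. It stood at 981, 1138, 966 and 1083 CPM in undifferentiated and 233, 171, 186 and 165 in differentiating spermatogonia-like cells (-2.57 ± 0.10 SE, adjusted p = 1.85e-10). The 2 stages did not overlap, and its parent *Rpl22* moved the other way, from 1899, 1438, 1701 and 1031 to 2241, 1881, 2036 and 1327 CPM (0.19 ± 0.06 SE, adjusted p = 0.011). *Rps27l*, a copy of *Rps27* and a known target of p53, rose from 385, 276, 366 and 256 to 1158, 1018, 1099.9 and 1027 CPM (1.62 ± 0.08 SE, adjusted p = 1.98e-09), while *Rps27* gave -0.33 ± 0.06 (SE, adjusted p = 0.000416) and turned to 0.28 when scaled to the sum of the members. No library of one stage reached the other in *Rps27l*.

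*Rps4x* showed the steepest fall of any member at this step. It stood at 404, 270.2, 429 and 215 CPM in undifferentiated and 82.4, 25.9, 79.7 and 20.5 in differentiating spermatogonia-like cells (-2.83 ± 0.15 SE, adjusted p = 3.4e-09). In interstitial-like cells it was at 2937, 1946, 3031 and 1312 CPM. The undifferentiated level was thus 13.8, 13.9, 14.1 and 16.4% of the interstitial-like level of the same library, where the 12 interstitial markers had medians of 0.252, 0.581, 0.0863 and 0.594%. In differentiating cells *Rps4x* was at 2.81, 1.33, 2.63 and 1.56% and the markers at 0.212, 0.631, 0.12 and 0.506%. How much of the *Rps4x* left after the first stage came from RNA of other cells was not tested. *Rps20*, *Rpl10a* and *Rpl17* were lower, with log2 fold changes of -1.07 ± 0.06, -1.18 ± 0.06 and -1.03 ± 0.06, and *Rpl41*, *Rpl39* and *Rpl7l1* higher by 0.29 ± 0.06, 0.33 ± 0.08 and 0.31 ± 0.09.

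*Rpl39l* was high at both ends of the germ cell series and low between them. It stood at 899, 1191, 1006 and 1137 CPM in undifferentiated and 428, 345, 396 and 436 in differentiating spermatogonia-like cells. It was at 264, 330.4, 303 and 304 CPM in preleptotene to zygotene-like and at 722, 564, 617 and 623 in pachytene-like cells. All 4 undifferentiated values lay above all pachytene-like values, and these above all preleptotene to zygotene-like values. The edgeR fold change was -1.50 ± 0.10 (SE, adjusted p = 1.24e-08) from undifferentiated to differentiating cells. From all spermatogonia-like to pachytene-like cells it was 0.38 ± 0.09 (SE, adjusted p = 0.00119), but against undifferentiated spermatogonia-like cells alone it was -0.83. Its parent *Rpl39*, a small protein at the exit tunnel of the large subunit, peaked where *Rpl39l* was lowest, with 349, 396, 257 and 393 CPM in undifferentiated, 438, 679.7, 384 and 439.7 in differentiating, 1058, 1109.7, 828 and 920.0 in preleptotene to zygotene-like and 520.2, 605, 381 and 467 in pachytene-like cells. The UMIs of *Rpl39l* per UMI of *Rpl39* were therefore 3.10 ± 0.57 (SD, n = 4) in undifferentiated, 0.877 ± 0.248 in differentiating, 0.311 ± 0.0494 in preleptotene to zygotene-like and 1.32 ± 0.285 in pachytene-like cells. In interstitial-like cells the ratio was 0.0150 ± 0.0124.

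*Rpl10l* took a similar course at a lower level. It stood at 101, 76.5, 78.6 and 80.2 CPM in undifferentiated, 47.5, 29.3, 45.1 and 37.9 in differentiating, 29.3, 29.3, 26.6 and 28.2 in preleptotene to zygotene-like and 123, 68.7, 102 and 117 in pachytene-like cells. The undifferentiated and pachytene-like values overlapped, and control 2 was the lowest pachytene-like value. Its fold change was -1.17 ± 0.11 (SE, adjusted p = 5.54e-07) in the first step and 1.17 ± 0.11 (SE, adjusted p = 7.48e-07) from all spermatogonia-like to pachytene-like cells, the highest of all members. Its parent *Rpl10*, needed for the last steps of large subunit maturation, was at 290.4, 354, 336 and 294 CPM in undifferentiated and 176, 177, 172 and 166 in pachytene-like cells. The ratio of *Rpl10l* to *Rpl10* was 0.268 ± 0.0583 in undifferentiated, 0.123 ± 0.0275 in differentiating, 0.0856 ± 0.00847 in preleptotene to zygotene-like and 0.595 ± 0.147 in pachytene-like cells.

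**Figure D3:**
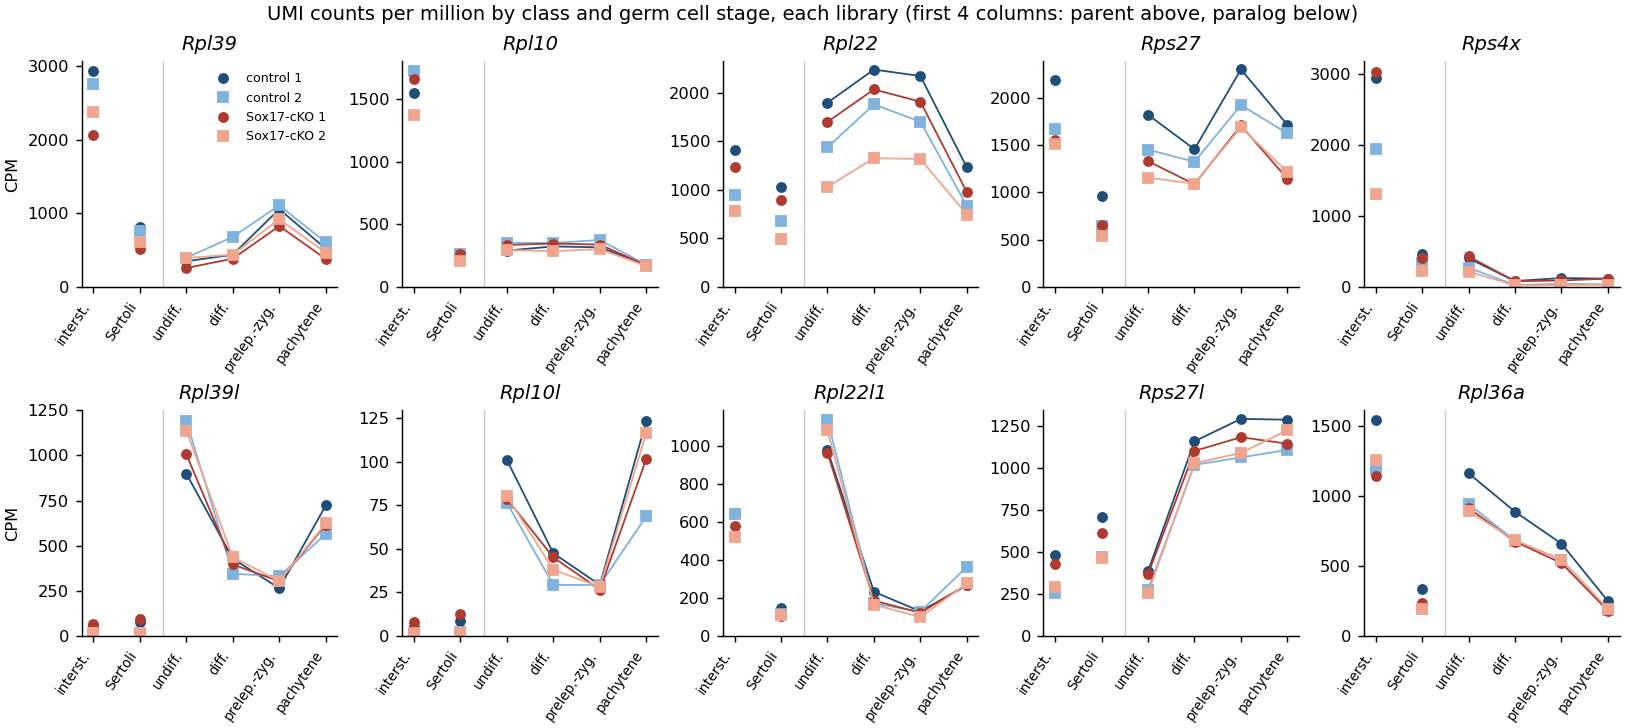
Levels in CPM (y axes, each from 0 and on its own scale) in interstitial-like and Sertoli-like cells and in 4 germ cell stages (x axis), 1 point per library, with lines joining the stages of a library. *Rpl39l* and *Rpl10l* dip at the preleptotene to zygotene-like stage, *Rpl22l1* drops and *Rps27l* rises after the undifferentiated stage, and *Rps4x* stays at 125 CPM or lower from the differentiating stage on.

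Both copies were also counted outside the germ line, at levels that followed the library. *Rpl39l* stood at 76.6, 17.9, 96.6 and 16.6 CPM in Sertoli-like and 56.2, 11.1, 63.5 and 14.3 in interstitial-like cells, high in both replicate 1 libraries and low in both replicate 2 libraries. The Sertoli-like values are 15.1, 4.48, 21.3 and 3.47% of the germ-like CPM of the same library. The 9 germ cell markers, counted in the same way, had medians of 14.5, 3.20, 15.1 and 5.11%. *Rpl10l* was at 14.1, 6.05, 26.002 and 3.10%. *Tdrd1* (29.6 to 69.9%) and *Uchl1* (49.7 to 111%) stood above the other markers in Sertoli-like cells. In interstitial-like cells *Rpl39l* was at 11.1, 2.77, 13.99 and 2.997% beside marker medians of 9.79, 2.13, 8.64 and 4.59%. The part of free germ cell RNA in these counts was not tested. The fold changes from Sertoli-like to germ-like cells, 3.19 ± 0.46 (SE, adjusted p = 0.000635) for *Rpl39l* and 2.85 ± 0.43 (SE, adjusted p = 0.000807) for *Rpl10l*, contain these counts.

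**Figure D4:**
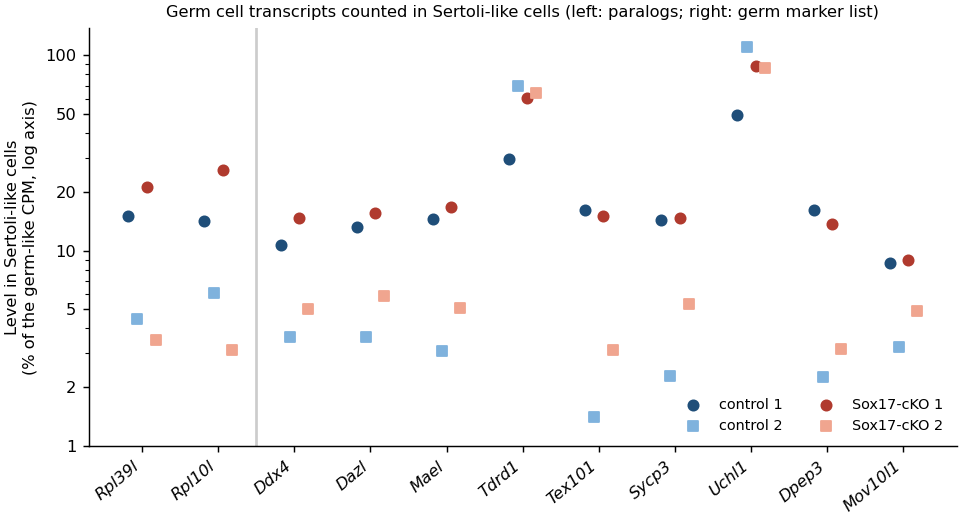
Level in Sertoli-like cells as a percent of the germ-like CPM of the same library (y axis, log scale) for *Rpl39l* and *Rpl10l* (left of the line) and for the 9 germ cell markers (right), 1 point per library. *Rpl39l*, at 3.47 to 21.3%, lies with most markers, higher in both replicate 1 libraries (circles), and *Tdrd1* and *Uchl1* lie above.

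The other paralogs differed from one another. *Rpl3l*, a copy best known from striated muscle, was rare, at 5.31, 4.72, 6.98 and 3.33 CPM in germ-like and 0.831, 0.165, 0.924 and 0 in Sertoli-like cells, where the 0 of *Sox17*-cKO 2 allows up to 0.334 CPM. It was higher in germ-like cells (3.05 ± 0.47 SE, adjusted p = 0.000898) and lower in pachytene-like than in spermatogonia-like cells (-1.53 ± 0.41 SE, adjusted p = 0.00441), at 0.892 to 2.62 CPM. Both fold changes rest on few counts, with 10, 1, 8 and 0 UMIs in Sertoli-like and 7, 1, 3 and 1 in pachytene-like cells. *Rpl7l1*, whose product acts in ribosome assembly, was at 105, 132, 109 and 116 CPM in germ-like and 54.4, 58.4, 61.7 and 56.2 in interstitial-like cells, and gave 0.01 ± 0.09 (SE, adjusted p = 0.893) against Sertoli-like cells. *Rpl36al* was at 101, 90.3, 92.4 and 129.9 CPM and *Rps27rt* at 23.3, 24.2, 16.1 and 39.1 CPM in germ-like cells, and both share 3' sequence with other genes. *Rps27rt* gave 0.25 ± 0.17 (SE, adjusted p = 0.199) and *Rpl36al* -0.67 ± 0.11 (SE, adjusted p = 9.9e-05) between pachytene-like and spermatogonia-like cells. *Rps27l* stayed high in pachytene-like cells (0.38 ± 0.08 SE, adjusted p = 0.000539), at 1286, 1107, 1143 and 1223 CPM, and was at 707, 471, 612 and 465 CPM in Sertoli-like and 483, 256, 431 and 292 in interstitial-like cells. *Rpl22l1* stood at 129.6, 128, 122 and 99.6 CPM in preleptotene to zygotene-like and 267, 364, 271 and 277 in pachytene-like cells. Its pachytene-like values lay above all preleptotene to zygotene-like values and below all undifferentiated values. Its UMIs per UMI of *Rpl22* were 0.732 ± 0.244 in undifferentiated and 0.325 ± 0.0971 in pachytene-like cells.

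Between pachytene-like and spermatogonia-like cells, 66 of the 86 members were lower and 8 higher, against 72.9% of 11601 genes tested (34.6% higher, 38.3% lower). The members were called more often than the background, which holds genes of all levels and is not matched to theirs. How far their high level accounts for this was not tested. Their median was -0.69 and that of all genes -0.08. *Rps2*, a small subunit protein gene, stood at 2874, 3723, 2986 and 4765 CPM in spermatogonia-like and 862, 1185, 955 and 1409.7 in pachytene-like cells (-1.64 ± 0.07 SE, adjusted p = 5.43e-10), and *Rps26* and *Rplp2* were lower, with log2 fold changes of -1.69 ± 0.08 and -1.50 ± 0.08. *Rps2* did not overlap between the stages. The 8 members that were higher were 3 paralogs (*Rpl10l*, *Rpl39l* and *Rps27l*), *Rps19bp1* and 4 standard members (*Rpl23*, *Rps12*, *Rps20* and *Rps27*). Of the last, *Rps20* stood at 2769, 2628, 2645 and 2887 CPM in spermatogonia-like and 3868, 5543, 3253 and 5115 in pachytene-like cells (0.73 ± 0.10 SE, adjusted p = 2.37e-05), and *Rps12* gave 0.37 ± 0.09 (SE, adjusted p = 0.00225). Against undifferentiated spermatogonia-like cells alone, *Rps20* gave -0.17, *Rps12* -0.46 and *Rps27* -0.12, so their direction depended on the early cells taken, and 3 members were higher and 77 lower. The background of 72.9% is not that of this fit. *Rpl23* stood at 4393, 3798, 4400.4 and 3921 CPM in undifferentiated and 3551, 3221, 2992 and 2934 in pachytene-like cells.

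Of the 4 X-linked members, 3 were lower in pachytene-like than in all spermatogonia-like cells. *Rpl36a* fell from 945, 706, 721 and 716 to 248, 185, 180.2 and 195 CPM (-1.87 ± 0.09 SE, adjusted p = 7.99e-10), without overlap. *Rpl10* fell from 317, 352, 344 and 287 to 176, 177, 172 and 166 CPM (-0.85 ± 0.09 SE, adjusted p = 2.21e-06). *Rps4x*, already low, gave -0.41 ± 0.12 (SE, adjusted p = 0.00739) and turned to 0.20 when scaled to the sum of the members, and *Rpl39* gave 0.16 ± 0.09 (SE, adjusted p = 0.13). The fall of *Rps4x* rested on the undifferentiated cells among the spermatogonia-like. As a percent of the interstitial-like level of the library, it was at 2.81, 1.33, 2.63 and 1.56% in differentiating cells. In pachytene-like cells it was at 3.93, 1.79, 3.86 and 2.15%, higher in each library. The median of the 4 X-linked members, -0.63, lay beside -0.73 for the 73 autosomal standard members and -0.07 for the 478 X-linked genes tested.

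Other genes of protein synthesis give the setting. *Fau*, which encodes a ribosomal protein fused to a ubiquitin-like protein, and *Rack1*, a small subunit protein, were higher in germ-like than in Sertoli-like cells (0.29 ± 0.11 and 0.32 ± 0.11) and lower in pachytene-like than in spermatogonia-like cells (-0.91 ± 0.07 and -0.82 ± 0.08). Of 16 translation factors and other 5'TOP mRNAs, 10 were lower and 4 higher in pachytene-like cells (median -0.56), a called share of 87.5% against the background of 72.9%. Among 21 ribosome biogenesis genes 14 were lower and 2 higher (median -0.66), and among 77 mitochondrial ribosomal protein genes tested 41 and 17 (median -0.40), called shares of 76.2 and 75.3% that lie close to this background. Between germ-like and Sertoli-like cells, these 3 lists had medians of 0.05, 0.44 and -0.01, against 0.65 for the members, with 5 higher and 3 lower in the first and called shares of 85.7 and 67.5% in the others against 79.6%. In RT-like over Sertoli-like cells, 10 of the 21 biogenesis genes were lower and 11 did not pass (median -0.60), and mitochondrial ribosomal protein genes 36 lower and 5 higher (median -0.44), called shares of 47.6 and 53.2% beside a background of 52.0%.

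The study asks what *Sox17* in the RT does to the neighbouring cells, so the members were compared between *Sox17*-cKO and control in each class. No member passed the threshold in RT-like, Sertoli-like, germ-like or interstitial-like cells by edgeR or by DESeq2, and 1 in each class had an unadjusted p under 0.05. The replicate number was also entered as a block in edgeR, a fit that leaves 1 degree of freedom among the 4 libraries. In RT-like cells 2 of the 83 members tested passed, both lower, beside 275 of the 6799 genes. The members thus did not stand out from the genes as a whole. The block gave 0 members in the other 3 classes, where the count of all genes called is not given. Of all genes, edgeR called 0.0882% in RT-like cells (6 of 6799, all lower) and 0.0% in the other 3 classes. The median log2 fold changes of the members were -0.14, -0.29, -0.16 and -0.18 in these 4 classes, and those of all genes lay within 0.01 of 0. Scaling to library totals moved the median of all genes in Sertoli-like cells to 0.12 and that of the members to -0.16. Of the 3 lists above, no gene passed in these 4 classes in edgeR, and 0 to 2 genes per list and class had an unadjusted p under 0.05.

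The share of UMIs was lower in *Sox17*-cKO within both replicate numbers in 10 of 11 classes and stages, but the groups overlapped in all 11. The germ-like class holds the cells of the 4 stages, and all 11 come from the same 4 libraries, so they are no independent repeats. With 2 pairs, an exact sign-flip permutation test cannot go below a two-sided p of 0.5. The difference, *Sox17*-cKO minus control, was -0.70 points in RT-like cells (-0.90 within replicate 1 and -0.50 within replicate 2) and -0.80 in Sertoli-like cells (-1.17 and -0.43). It was -1.14 in germ-like (-2.22 and -0.05) and -1.28 in interstitial-like cells (-2.13 and -0.42). Leydig-like cells gave -1.70 (-1.69 and -1.71). Macrophage-like cells gave -1.29 (-1.30 and -1.28). Endothelial-like cells, the exception, gave 0.04 (0.89 and -0.81). At the 4 germ cell stages it was -1.40 (-1.38 and -1.43), -0.89 (-1.70 and -0.08), -0.98 (-1.23 and -0.74) and -1.12 (-1.66 and -0.58), in the order of the stages. Taken without the replicate number, the classes gave p = 0.667 or 1 (0.778 or 1 after adjustment over the 7 classes) in a two-sided exact permutation test, in which 2 libraries against 2 cannot go below 0.333. Leaving out 1 library leaves the replicate numbers unequal between the genotypes, so that the replicate difference enters: without control 1 the difference was positive in RT-like (1.39), Sertoli-like (0.48), germ-like (0.97) and interstitial-like cells (1.05), and without *Sox17*-cKO 2 in RT-like (1.19), Sertoli-like (0.11) and interstitial-like cells (0.19). The replicate number made a greater difference than the genotype in every class and stage: replicate 1 minus replicate 2 was 1.64 to 6.69 points. Of the 77 standard members, 41 were higher in both replicate 1 libraries in all 8 of the classes and stages compared (RT-like, Sertoli-like, germ-like and interstitial-like cells and the 4 germ cell stages), and 1 (*Rpl18*) was lower in all 8. Of the 1523 genes with 50 CPM or more in each of these, 11.9% were higher and 9.0% lower in this way. *Rps2* and *Rpl27* were among those with lower values in replicate 1, with median log2 ratios of -0.52 and -0.50. *Rps24*, for example, stood at 4675, 2425, 4285 and 2119 CPM in germ-like cells. The Cell Ranger version and any other difference between the replicates cannot be told apart.

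*Rpl35*, a large subunit protein near the exit tunnel, had the smallest p of all members in each of the 4 classes. It stood at 688, 881, 447 and 441 CPM in RT-like, 597, 704, 453 and 336 in Sertoli-like, 1264, 1683, 989 and 850.4 in germ-like and 1203, 1540.2, 996 and 792 in interstitial-like cells. Both *Sox17*-cKO values lay below both control values there, and in 10 of the 11 classes and stages in all, endothelial-like cells being the exception. The log2 fold changes were -0.86 ± 0.29 (SE, adjusted p = 0.633), -0.86 ± 0.31 (SE, adjusted p = 1), -0.72 ± 0.28 (SE, adjusted p = 1) and -0.69 ± 0.27 (SE, adjusted p = 1), none past the threshold. Once the replicate number entered as a block, *Rpl35* passed in RT-like cells (-0.87, edgeR adjusted p = 0.000747) and in none of the other 3 classes. Its fold changes without the block were of like size in the 4 classes, so this does not set RT-like cells apart. In RT-like cells the change was -0.62 within replicate 1 and -0.9996 within replicate 2, and in Sertoli-like cells -0.40 and -1.07. In germ-like cells it was -0.35 and -0.98. The classes come from the same 4 libraries and are no independent repeats. Of the 77 standard members, 3 (RT-like) to 15 (Leydig-like and pachytene-like) lay below both controls in a class or stage. The share of all genes that did so was not counted. *Rpl35* was named for its small p in these same libraries.

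*Rps27* lay lower in both *Sox17*-cKO libraries in 8 of 11 classes and stages and *Rpl39* in 7. Counts of this kind, here and for the other genes below, were not made over all genes. *Rpl39* gave -0.60 ± 0.29 (SE, adjusted p = 1) in Sertoli-like and -0.42 ± 0.25 (SE, adjusted p = 1) in interstitial-like cells. *Rps27* gave -0.54 ± 0.31 (SE, adjusted p = 1) in Sertoli-like, -0.36 ± 0.25 (SE, adjusted p = 1) in germ-like and -0.40 ± 0.25 (SE, adjusted p = 1) in interstitial-like cells, and *Rpl38* -0.52 ± 0.37 (SE, adjusted p = 1) in germ-like cells. The groups of *Rps27* overlapped in Sertoli-like cells, at 961, 649, 658 and 544 CPM. Those of *Rpl38* overlapped in germ-like cells, at 1672, 830.4, 1074 and 723 CPM, and *Rpl38* lay lower in both *Sox17*-cKO libraries in 1 of 11 classes and stages. In RT-like cells, where *Sox17* itself was lower, the next after *Rpl35* were *Rpl22l1*, at 526, 391, 343 and 248 CPM (-0.68 ± 0.32 SE, adjusted p = 0.904), and *Rpl27*, at 227, 234, 285 and 393 CPM (0.53 ± 0.29 SE, adjusted p = 0.951). For *Rpl22l1* both *Sox17*-cKO values lay below both controls, and for *Rpl27* above them. This held in 5 of 11 classes and stages for *Rpl22l1* and in RT-like cells only (1 of 11) for *Rpl27*. With the replicate number as a block, *Rpl22l1* passed in RT-like cells (-0.68, edgeR adjusted p = 0.0381).

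**Figure D5:**
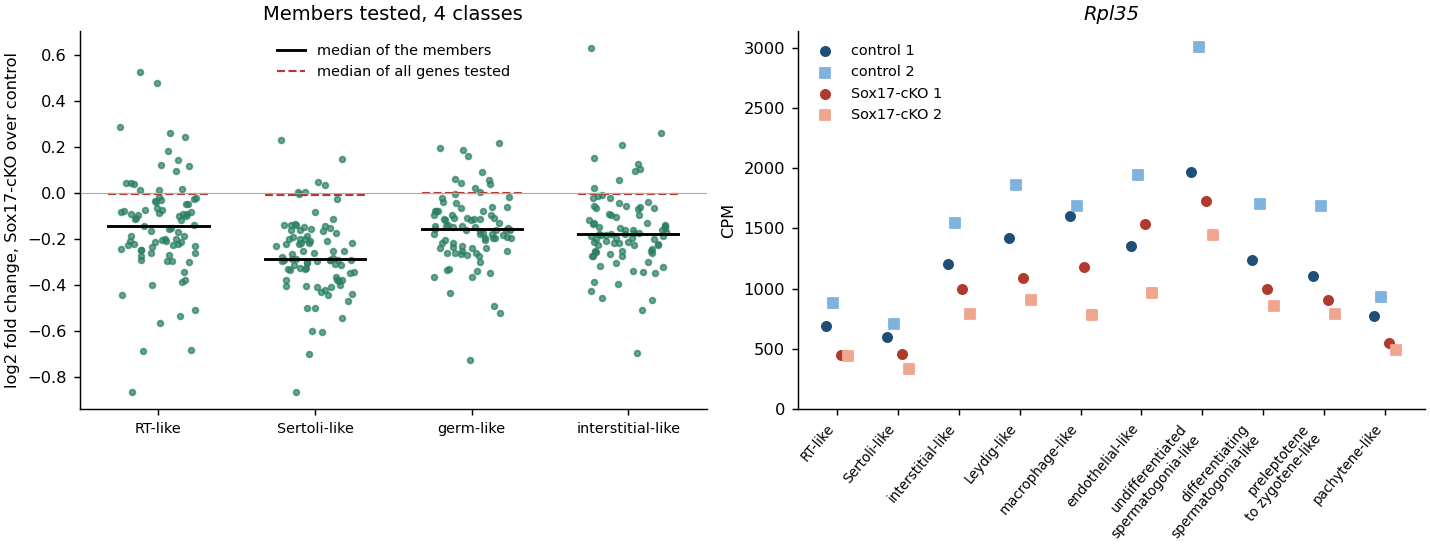
Left: log2 fold changes of *Sox17*-cKO over control (y axis) for the members tested in 4 classes, with the median of the members (line) and of all genes tested (dashed). Right: *Rpl35* in CPM by class and stage, 1 point per library, with both *Sox17*-cKO libraries below both controls in 10 of 11 classes and stages counted (germ-like as a whole is not drawn) and endothelial-like cells the exception.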

How the data were processed

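Single-cell RNA-seq (10x, 3' ends) was made from the RT region of P14 testes, 2 libraries per genotype with 3 pups pooled in each. The deposited tables hold raw UMI counts per gene and cell, which the authors made with Cell Ranger 6.0.2 (replicate 1) and 6.1.2 (replicate 2) on mm10. Total counts were 33649565 to 42011650 UMIs per library in retained cells. Cells with 1000 to 4500 genes were kept. Of the 22567 retained cells only 212 had under 1% mitochondrial UMIs, the maximum in the methods, and cells above it stayed in. Scrublet made 538 calls and 0 in 2 of the libraries, and doublets were kept. Cells were integrated in Seurat 5.3.0 (2000 variable features without the members, 20 components, resolution 0.4) and clusters named when marker lists supported them.

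Counts were summed per library and class and tested with edgeR 4.0.16 (quasi-likelihood, TMM, filterByExpr, two-sided, Benjamini-Hochberg over all genes tested, 0.05), with the library as a block between classes. Libraries of the same replicate number share a Cell Ranger version and deviated together from their group means (r across genes of 0.46 in RT-like, 0.65 in Sertoli-like, 0.66 in germ-like and 0.73 in interstitial-like cells), so a fit with the number as a block is given beside the genotype results it changes. The sources used here name no litter or day shared within a number. The script was tested on simulated data. CPM are UMIs per 1000000 UMIs of the class in that library. They are relative, so a fall in CPM does not give molecules per cell. DESeq2 1.42.0 and the other settings given at the end were alternatives. Shares were compared with exact permutation tests. Between genotypes the p-values measure the spread between pooled libraries. Between classes and stages, compared within libraries, they measure how far the difference varied from library to library. Genes were named by rule: paralogs and their parents, X-linked members, *Rps19bp1*, up to 5 members per direction with the smallest adjusted p and the same sign in every library, and, where under 2 passed, the 3 with the smallest p. *Rpl23*, *Rps24* (between replicates), *Rpl18*, *Rps2* and *Rpl27* (between replicates) and the members listed by stage step were named after their values were seen. The members and lists were chosen with earlier results of these data known. Coding sequences and 3' repeats come from GENCODE vM21 and promoters from RefSeq. Some items that met the naming rule are not reported here.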

Additional observations from a re-analysis of the deposited data

Results flagged for a closer look

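Dixon's test of the highest or lowest of 4 libraries was passed by 8 of 135 sets of values, where chance gives about 1 in 20. *Rpl10* in Sertoli-like cells was low in *Sox17*-cKO 2 (210.6 CPM, the others 261 to 266). *Rpl10l* in undifferentiated spermatogonia-like cells was high in control 1 (100.9 CPM). In pachytene-like cells, control 2 was high in *Rpl22l1* (364 CPM) and high in *Rpl3* (809.6 CPM). *Rpl36a* was high in control 1 in germ-like (809 CPM) and differentiating spermatogonia-like cells (886 CPM). *Rpl36al* was high in *Sox17*-cKO 2 in undifferentiated (124 CPM) and differentiating spermatogonia-like cells (156 CPM).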

How the results depend on the processing

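Of the values for whole comparisons, 169 kept their direction and side of the threshold or count, 6 moved and 7 changed sign. Of those for named genes, 1424 kept theirs, 60 lost and 22 gained the threshold, and 18 changed sign. With the replicate number as a block in edgeR, RT-like cells called 275 of the 6799 genes in place of 6, and 2 of the 83 members tested. Both were lower in *Sox17*-cKO, *Rpl35* (-0.87, edgeR adjusted p = 0.000747) and *Rpl22l1* (-0.68, edgeR adjusted p = 0.0381). The block called 0 members in the other 3 classes.

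RT-like over Sertoli-like cells called 37 members, and 21 to 33 when 1 library was left out (23 without *Sox17*-cKO 1 and 21 without *Sox17*-cKO 2). It called 57 with library totals, 59 scaled to the sum of the members and 13 with no replicate block (library not in the fit). The last fit gave 51 in germ-like over Sertoli-like, 52 in pachytene-like over spermatogonia-like and 53 in differentiating over undifferentiated cells, in place of 70, 74 and 78. Scaled to the sum of the members, which fixes their total, 39 were higher and 29 lower in germ-like over Sertoli-like, 32 and 39 in pachytene-like over spermatogonia-like, 31 and 37 in differentiating over undifferentiated and 32 and 27 in RT-like over Sertoli-like cells. With no filter on low counts, RT-like over Sertoli-like cells had 20 higher and 11 lower. Counts of all genes called are given in this section for the replicate block in RT-like cells only. The other counts of members therefore do not tell a change in the members from one in the whole fit.

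Leaving out 1 library, which leaves the replicate numbers unequal between the genotypes, the share difference between genotypes ran from -2.79 to 1.39 points in RT-like, -2.09 to 0.483 in Sertoli-like, -3.25 to 0.973 in germ-like and -3.60 to 1.05 in interstitial-like cells. It changed sign without control 1 (1.39, 0.483, 0.973 and 1.05) and, in RT-like, Sertoli-like and interstitial-like cells, without *Sox17*-cKO 2 (1.19, 0.109 and 0.193). Between germ-like and Sertoli-like cells the share difference stayed within 5.23 to 6.68 points.

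In germ-like over Sertoli-like cells, library totals turned *Rpl10* (0.32), *Rpl3* (0.24) and *Rpl36al* (0.047), and scaling to the members turned *Rpl7* (-0.55), *Rpl7l1* (-0.58) and *Rps27l* (-0.048). Scaling to the members also turned *Rpl22l1* (0.48), *Rpl3* (0.31) and *Rps4x* (0.20) in pachytene-like over spermatogonia-like cells, and *Rpl10* (0.55), *Rpl36a* (0.089), *Rps27* (0.28) and *Rps27rt* (0.45) in differentiating over undifferentiated cells. Against undifferentiated spermatogonia-like cells alone (tried only after seeing the data), *Rpl39l* (-0.83), *Rpl7* (-0.77), *Rps12* (-0.46), *Rps20* (-0.17) and *Rps27* (-0.12) turned, and 77 members were lower and 3 higher. Where no construction is given, the cause was not tested. RT-like cells (33 to 86 per library) and endothelial-like cells (8 to 26) limit the depth.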
